A study of Mus musculus with 2 samples.

Results

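The epidermal growth factor (EGF) receptors and their ligands are 10 of the 21938 protein-coding genes that GENCODE M21 annotates on chromosomes 1 to 19, X and Y of the mouse build GRCm38. They comprise the 4 receptors *Egfr*, *Erbb2*, *Erbb3* and *Erbb4* and the 6 ligands *Areg*, *Ereg*, *Hbegf*, *Egf*, *Tgfa* and *Btc*. They were chosen by name, the rule using no read value, although earlier results of these data were known, and each gene body was taken with 20 kb either side, which gave 1931928 bp in all. The reads came from Gata3 ChIP-seq of 2 libraries, replicates 1 and 2 of a single condition, in mouse TH2 cells that were grown from spleen and expanded *in vitro*. Per the study's methods for TH2 differentiation, naïve CD4+ T cells were activated through CD3 and CD28 with IL-2, IL-4 and an antibody blocking IFNγ. The labels give the antibody as anti-GATA3 D13C9, and the methods state that the captured chromatin was tagmented on the beads, so that a transposase cut the DNA and added the adaptors. The labels' extraction text names ILC2, a type of innate lymphoid cell, whereas their cell type field and the methods name TH2 cells. The genotype and age of the mice, and whether the libraries came from separate cultures, are not given in the labels used here. With a single condition no groups were compared, and with no input or IgG library used here, Gata3 binding and accessibility of the chromatin to the transposase cannot be told apart.

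On these chromosomes library 1 held 40504814 and library 2 held 24959052 reads, on average 2.97 and 1.83 in each 200-bp window. Peaks were windows that passed a one-sided exact Poisson test against the local read density (Benjamini-Hochberg q of 0.01), exact p is the unadjusted p of that test at the summit window, and a peak of library 1 that overlapped a peak of library 2 is called shared. There were 23806 shared peaks, 33.2% of the peaks of library 1. Heights are given in RPM, reads of a 200-bp window scaled to library size, and 1 read was 0.0247 RPM in library 1 and 0.0401 RPM in library 2. Intervals are exact and cover counting error only. Over 383 windows of 5 kb in the EGF family regions, the read counts of the libraries had a Pearson correlation of 0.956, across windows that are not replicates, and they differed by more than counting error, with a chi-square of 1.36 per degree of freedom. The names of the reads point to separate instruments for the libraries, so differences between libraries and instruments cannot be told apart. Genes that mark TH2 cells (*Gata3*, *Il4*, *Il5*, *Il13*, *Il1rl1*, *Ccr4* and *Ccr8*) had a shared peak in 7 of 7 cases, but so had 3 of 3 TH1 genes, 1 of 3 B cell genes, 2 of 3 myeloid genes and 1 of 2 NK cell genes. Of all protein-coding genes, 54.8% had one. Reads of a Gata3 immunoprecipitation are not expression, so these counts do not check the cell type.

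The EGF receptors are tyrosine kinases of the cell surface. A ligand is made as a membrane-bound precursor, is released by cleavage, and brings receptors together in pairs that phosphorylate each other and signal through Ras and ERK and through PI3K. Erbb2 has no known ligand of its own, and Erbb3 has little kinase activity and signals with a partner. In type 2 immunity the best known member is amphiregulin, the product of *Areg*, which TH2 cells, ILC2 and regulatory T cells can make and which acts in tissue repair. Gata3 is the transcription factor that directs TH2 differentiation and recognises DNA sequences with GATA at their core.

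*Egfr* held 5 of the 12 shared peaks in the EGF family regions and the tallest of them, in a region of 205956 bp. Smaller numbers of shared peaks lay at *Erbb4* (2), *Erbb3*, *Areg*, *Ereg*, *Egf* and *Btc* (1 each), and *Erbb2*, *Hbegf* and *Tgfa* had 0. In all, 7 of the 10 genes had a shared peak, 3 of the 4 receptors and 4 of the 6 ligands, beside 54.8% of all protein-coding genes. A peak of library 1 lay in 10 of the 10 regions, beside 81.2% of all genes, and a peak of library 2 in 7 of the 10, beside 58.9%. At a q of 1e-10 a shared peak remained in 3 regions, those of *Egfr*, *Ereg* and *Egf*, beside 19.6% of all genes. These shares are not corrected for the length of the regions. The 12 peaks correspond to 0.621 per 100 kb, and to 0.406 per 100 kb without *Egfr*. The chromosomes as a whole had 0.873 per 100 kb. The regions of all protein-coding genes, the closer measure, had 1.36, with overlaps counted in each. The long *Erbb4* region takes 1115874 of the 1931928 bp and held 2 of the 12 peaks, so it lowers the rate of the family. Per 100 kb, *Egfr* had 2.43 shared peaks, little above *Areg* (2.05, from 1 peak in 48834 bp). *Ereg* had 1.69, *Erbb3* 1.61, *Btc* 1.17, *Egf* 0.849 and *Erbb4* 0.179.

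*Egfr* encodes the receptor that binds EGF, amphiregulin and Tgfa. It lies on the plus strand at chr11:16752203-16918158 and has 28 exons. Its 5 shared peaks were numbered in order along the gene. *Egfr* 1 had its summit in intron 1, 2847 bp past the start, with 44 reads in library 1 (1.09 RPM) and 31 reads in library 2 (1.24 RPM). *Egfr* 2, also in intron 1 at 61497 bp, held 63 reads (1.56 RPM) and 24 reads (0.962 RPM). *Egfr* 3, in intron 1 at 86797 bp, held 177 reads (4.37 RPM) and 97 reads (3.89 RPM). It was the highest of the 5 in both libraries and its summit lay at the same window in both. *Egfr* 4, in intron 7 at 118097 bp, held 95 reads (2.35 RPM) and 50 reads (2.0 RPM). *Egfr* 5, at 492 bp past the annotated end of the gene, held 78 reads (1.93 RPM) and 36 reads (1.44 RPM). The order of the 3 highest was the same in both libraries, and the order of the lower pair differed, with *Egfr* 1 above *Egfr* 2 in library 2 only.

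**Figure D1:**
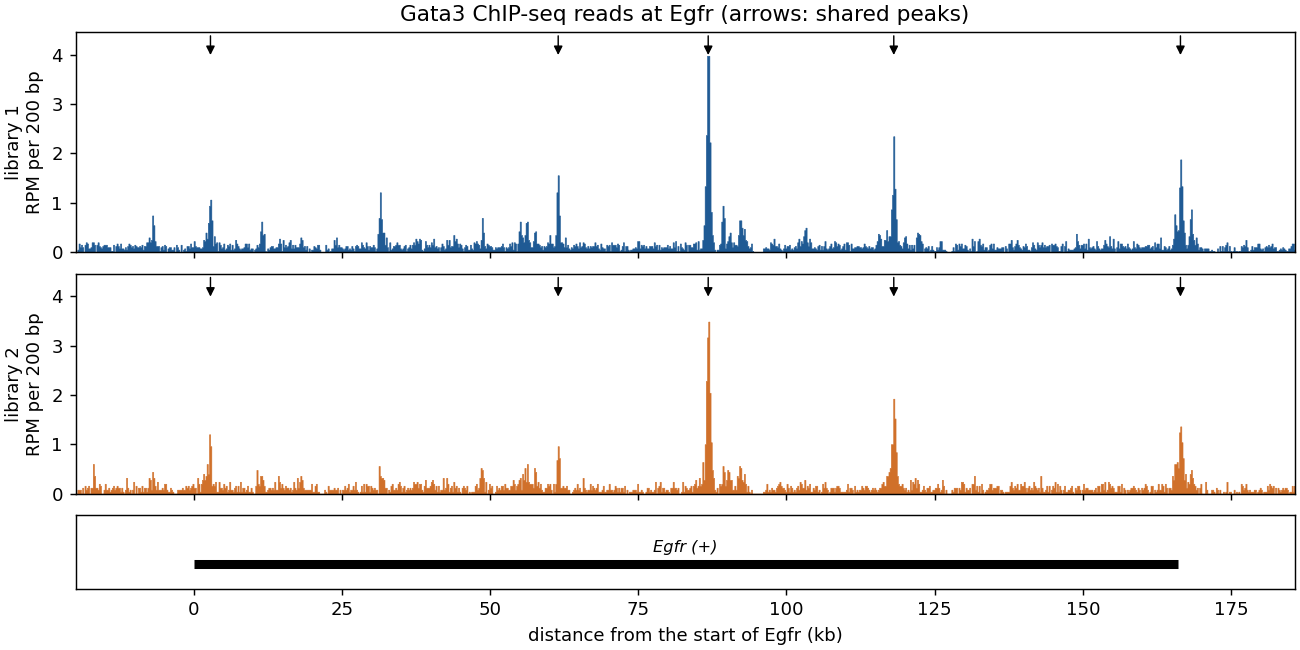
Gata3 ChIP-seq reads in consecutive 200-bp windows (RPM) in library 1 (upper panel) and library 2 (middle panel) against the distance from the start of *Egfr* in kb, with the gene drawn as a black bar and the 5 shared peaks marked by arrows. The highest window, 86797 bp past the start, reached 4.37 RPM in library 1 and 3.89 RPM in library 2 when windows were centred on it. A further 12 peaks called in library 1 alone and 1 called in library 2 alone carry no arrow.

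Against the local background, *Egfr* 3 was 5.91-fold in library 1 (exact p = 7.4e-75) and 5.59-fold in library 2 (exact p = 6.3e-40), and by the lower of its heights it ranked at the 99.0 percentile of all shared peaks. *Egfr* 4 was 5.42-fold and 4.81-fold (exact p = 4.0e-38 and 8.9e-19) and stood at the 90.5 percentile. *Egfr* 5, *Egfr* 1 and *Egfr* 2 stood at the 81.4, 69.8 and 62.9 percentiles and were between 3.40-fold and 5.57-fold. All 5 were thus above the median height of shared peaks, as against 2 of the 7 at the other EGF family genes. Only 4.30% of protein-coding genes had 5 or more shared peaks, but the *Egfr* region is long: of the 1268 genes whose regions were at least as long, 374 (29.5%) had 5 or more, and in shared peaks per 100 kb *Egfr* (2.43) stood at the 77.7 percentile of all genes. Summits were 58650, 25300, 31300 and 48350 bp apart from *Egfr* 1 to *Egfr* 5. The 5 peaks covered 1.89% of the region and held 18.4% of its reads in library 1 and 17.3% in library 2. The start of the antisense gene *Egfros*, which lies inside intron 1 at chr11:16815431-16830702, was 8298 bp from *Egfr* 3, and no annotated gene other than *Egfr* lay over the summits of *Egfr* 1 to 4. Counting 1 start per gene, the first of its annotated transcripts, the nearest coding start to *Egfr* 4 and *Egfr* 5 was that of *Fbxo48*, 81075 and 32725 bp away. A shorter coding transcript of *Egfr* starts 7850 bp from *Egfr* 4. Which gene a peak acts on was not tested.

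The sequences under the first 4 summits are shown because they differ in the letters they carry. GATA stands here for a match to AGATAA or to AGATAG, and likewise to TGATAA or to TGATAG, on either strand. AP-1, the sequence bound by Fos and Jun proteins, stands for TGAGTCA or its reverse complement, which is written TGACTCA. Each line gives 151 bases centred on the summit of library 1, on the plus strand of GRCm38 and so in the direction of *Egfr*, with these matches in capitals, in the order chr11:16754975-16755125, chr11:16813625-16813775, chr11:16838925-16839075 and chr11:16870225-16870375.
*Egfr* 1: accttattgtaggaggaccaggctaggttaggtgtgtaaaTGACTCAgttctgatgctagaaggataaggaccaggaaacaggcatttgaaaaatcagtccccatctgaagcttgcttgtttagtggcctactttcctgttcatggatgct
*Egfr* 2: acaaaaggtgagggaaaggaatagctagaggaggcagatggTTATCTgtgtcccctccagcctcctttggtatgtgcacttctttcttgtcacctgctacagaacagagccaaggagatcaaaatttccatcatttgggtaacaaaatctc
*Egfr* 3: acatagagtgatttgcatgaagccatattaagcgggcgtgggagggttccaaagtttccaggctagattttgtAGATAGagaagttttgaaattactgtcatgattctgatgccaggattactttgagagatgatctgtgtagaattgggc
*Egfr* 4: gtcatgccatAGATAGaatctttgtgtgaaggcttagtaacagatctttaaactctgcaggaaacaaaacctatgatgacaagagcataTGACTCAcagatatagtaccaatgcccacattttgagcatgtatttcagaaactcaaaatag
The tallest peak, *Egfr* 3, carried AGATAG at its summit. *Egfr* 4 carried both AGATAG and TGACTCA, *Egfr* 2 carried TTATCT, which reads AGATAA on the other strand, and *Egfr* 1 carried TGACTCA and no GATA match within 100 bp. *Egfr* 5 held neither sequence. A match is a description of the letters, and binding to it was not tested. GATA matches were far more common than peaks: the *Egfr* region held 534 of them, of which 17 (3.18%) lay inside a shared peak, in peaks that covered 1.89% of its bases. Over the 10 regions together 35 of 5719 matches (0.612%) lay inside a shared peak, beside 0.923% of the 7021378 matches on all chromosomes.

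**Figure D2:**
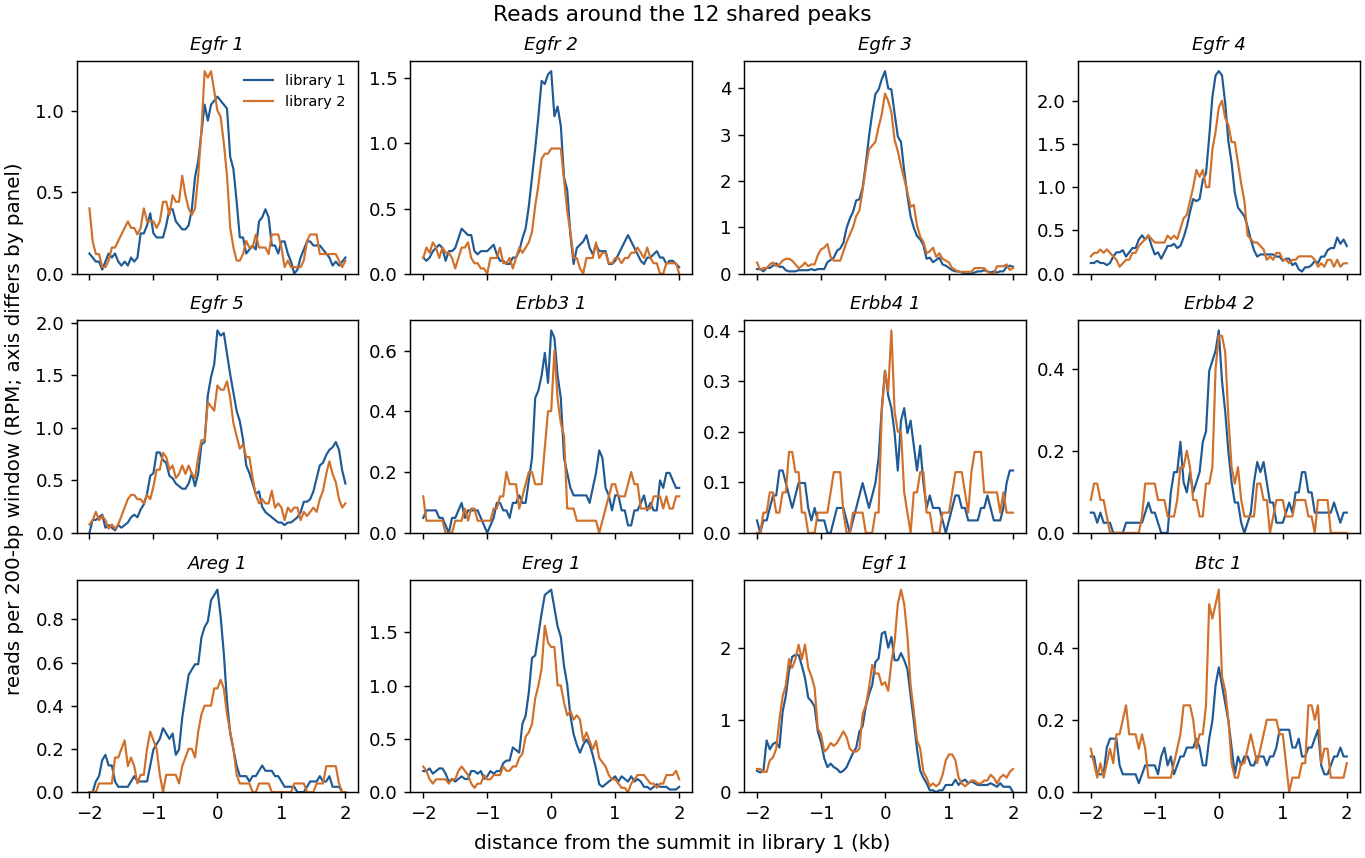
Reads per 200-bp window (RPM, vertical axis scaled per panel) from 2 kb before to 2 kb past the library 1 summit of each of the 12 shared peaks, in library 1 (blue) and library 2 (orange). *Egfr* 3 rose to 4.37 and 3.89 RPM, whereas *Erbb4* 1 and *Btc* 1 rose to 0.321 and 0.346 RPM in library 1, and *Egf* 1 shows a second rise before it that lies outside the 20-kb limit.

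Among the other receptors, *Erbb3* (chr10:128567523-128589652, minus strand) had a shared peak in exon 8, 7602 bp past its start, with 27 reads in library 1 (0.667 RPM, 4.72-fold) and 15 reads in library 2 (0.601 RPM, 5.43-fold). It carried TTATCT at 2 places within 100 bp of the summit and ranked at the 27.6 percentile among the shared peaks. *Erbb4*, which binds neuregulins as well as Btc and Hbegf, spans chr1:68032186-69108059 on the minus strand and is the longest gene of the family. Its 2 shared peaks lay in introns, *Erbb4* 1 in intron 1 at 272109 bp and *Erbb4* 2 in intron 2 at 542659 bp from the start. *Erbb4* 1 held 13 reads (0.321 RPM) and 10 reads (0.401 RPM), had no GATA match, and stood at the 0.865 percentile, among the lowest of all shared peaks. *Erbb4* 2 held 20 reads (0.494 RPM) and 12 reads (0.481 RPM), was 6.02-fold and 6.52-fold over a thin background, and stood at the 11.5 percentile. Per 100 kb, *Erbb4* had 0.179 shared peaks and *Egfr* had 2.43. *Erbb2* (chr11:98412470-98437716, plus strand), the receptor without a known ligand, had 0 shared peaks. Its highest window by the lower of the libraries, in intron 2 at 8130 bp, held 27 reads in library 1 (3.67-fold, exact p = 2.0e-08) and 11 reads in library 2 (2.86-fold, exact p = 0.0021). The window passed in library 1, where p up to 9.6e-05 passed, and missed in library 2, where the limit was 3.9e-05. A gene without a shared peak is therefore not shown to be free of Gata3.

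On chromosome 5, the ligand genes *Epgn*, *Ereg*, *Areg* and *Btc* lie side by side, and the 415531 bp from 20 kb before *Epgn* to 20 kb past *Btc* held 4 shared peaks, 0.963 per 100 kb. The tallest was in *Ereg* (chr5:91074622-91093646, plus strand), which encodes epiregulin. It lay in intron 1, 11328 bp past the start, with 77 reads in library 1 (1.90 RPM, 5.41-fold, exact p = 3.6e-31) and 39 reads in library 2 (1.56 RPM, 5.05-fold, exact p = 1.1e-15), which placed it at the 84.0 percentile among the shared peaks. *Areg* (chr5:91139599-91148432, plus strand) had a shared peak 2418 bp past its end and 11251 bp past its start. This peak held 38 reads in library 1 (0.938 RPM, 5.65-fold, exact p = 7.7e-17) and 13 reads in library 2 (0.521 RPM, 5.33-fold, exact p = 1.8e-06). The ratio of library 1 to library 2 was 1.80 (95% interval 0.939 to 3.68), so the difference between the libraries was within counting error, and by the lower height the peak stood at the 16.9 percentile. Within *Areg* itself 0 peaks were shared.

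The *Ereg* and *Areg* sites are shown as the 1 shared peak of each of these neighbouring ligand genes, with their GATA matches in capitals. They were among the 5 of the 12 family sites with 2 or more such matches within 100 bp of the summit, beside 25.9% of all shared summits. The lines give 151 bases on the plus strand, chr5:91085875-91086025 and chr5:91150775-91150925, the strand of both genes.
*Ereg* 1: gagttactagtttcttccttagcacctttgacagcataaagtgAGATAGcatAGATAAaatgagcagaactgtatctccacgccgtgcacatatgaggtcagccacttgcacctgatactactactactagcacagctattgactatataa
*Areg* 1: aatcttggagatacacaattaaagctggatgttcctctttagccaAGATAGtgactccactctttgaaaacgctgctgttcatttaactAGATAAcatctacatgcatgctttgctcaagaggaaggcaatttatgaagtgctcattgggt
In *Ereg* 1 the matches AGATAG and AGATAA followed each other closely before the summit. In *Areg* 1 they stood on either side of the summit, and a further match, TGATAA, lay within 100 bp of it, outside the printed window. Library 1 also had peaks at -15349 and -1699 bp from the start of *Areg* and in its intron 4, which were not called in library 2, with 18 to 25 reads against 3 to 8. The window in the *Areg* region that was highest by the lower of the libraries was near the first of these, at -15099 bp from the start (22 and 14 reads, 0.543 and 0.561 RPM), and not at the shared peak.

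*Btc*, which encodes betacellulin and lies on the minus strand at chr5:91357261-91402994, had the only shared peak of the family within 2 kb of a start, 1406 bp upstream. It held 14 reads in each library (0.346 and 0.561 RPM), carried TTATCT and TTATCA within 100 bp of the summit, and ranked at the 1.50 percentile among the shared peaks. In the 208828 bp between *Areg* and *Btc*, outside the 20-kb limits, a further shared peak had its summit at position 91278900 over the lincRNA gene *Gm19619*, with 31 reads (0.765 RPM) and 23 reads (0.922 RPM) and no GATA match. *Epgn*, which encodes epigen, had 0 shared peaks. Library 1 alone had 18 peaks over the whole stretch and library 2 had 4.

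**Figure D3:**
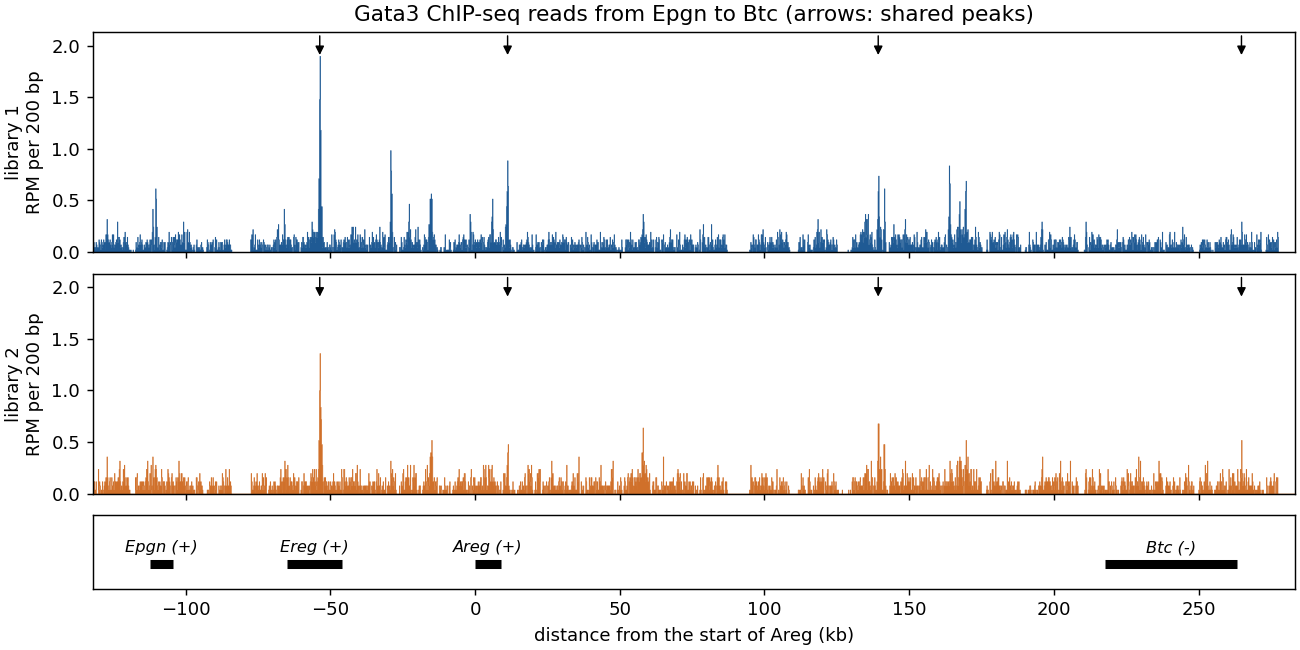
Gata3 ChIP-seq reads in consecutive 200-bp windows (RPM) in library 1 (upper panel) and library 2 (middle panel) against the distance from the start of *Areg* in kb, with the 4 ligand genes drawn as bars and the 4 shared peaks marked by arrows. The peak in *Ereg* is the highest in both libraries (1.90 and 1.56 RPM at its summits), and the arrow past the end of *Areg* marks 0.938 and 0.521 RPM.

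The remaining ligand genes lie on other chromosomes. *Egf*, on the minus strand at chr3:129677565-129755316, had a shared peak 18865 bp past its end, close to the 20-kb limit of the region, with 90 reads in library 1 (2.22 RPM, 3.59-fold) and 70 reads in library 2 (2.80 RPM, 3.84-fold). It ranked at the 92.4 percentile among the shared peaks, and the summits of the libraries were 250 bp apart. Just outside the limit, 20215 bp past the end, a further shared peak held 77 reads (1.90 RPM) and 51 reads (2.04 RPM), so that the peaks lay 96616 and 97966 bp from the start of the gene. *Hbegf* (chr18:36504927-36515805, minus strand), the heparin-binding ligand, had 0 shared peaks. In library 1 a peak in its intron 3, 7805 bp past the start, held 42 reads (1.04 RPM, 3.83-fold), and the same window in library 2 held 14 reads (0.561 RPM, 2.40-fold, exact p = 0.0029). With 400-bp windows *Hbegf* had 1 shared peak. *Tgfa* (chr6:86195223-86275719, plus strand) had 0 shared peaks, and its highest window by the same measure, in intron 1 at 24527 bp, held 22 reads (0.543 RPM) and 13 reads (0.521 RPM).

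Ordered by the lower height of the highest window in each region, the genes ran from *Egfr* (4.37 and 3.89 RPM) through *Egf* (1.93 and 2.80 RPM), *Ereg* (1.85 and 1.56 RPM), *Hbegf* (0.765 and 0.681 RPM), *Erbb3*, *Areg*, *Tgfa*, *Erbb4* and *Erbb2* to *Btc* (0.346 and 0.561 RPM). The ranges of the libraries overlapped for 3 of the 9 neighbouring pairs and for 9 of all 45 pairs. *Erbb2* overlapped *Erbb3*, *Areg*, *Tgfa*, *Erbb4* and *Btc*, *Btc* also overlapped *Areg*, *Tgfa* and *Erbb4*, and *Areg* overlapped *Tgfa*, so the order within these pairs is not set. A range of 2 libraries leaves out counting error, so ranges that do not overlap do not set an order either. *Tgfa* (22 and 13 reads) and *Erbb4* (20 and 12 reads) are such a pair. At these windows *Egfr*, *Egf* and *Ereg* lay above the median shared peak (0.801 RPM) in both libraries and the other 7 lay below it in both. The highest window of *Egfr* stood at the 98.7 percentile of the highest windows of all protein-coding genes, that of *Egf* at the 89.7 and that of *Ereg* at the 85.3 percentile. Longer regions offer more windows, and neither the order nor these percentiles are corrected for length. The *Egfr* region has 205956 bp, beside a median of 57425 bp over all genes. For scale, the tallest shared peak of *Il13*, a cytokine gene that Gata3 is known to control, held 220 and 138 reads (99.97 percentile of shared peaks), that of *Itgav*, the integrin gene the study centred on, held 142 and 102 reads (98.2 percentile), and that of *Gata3* itself held 108 and 45 reads (87.9 percentile). *Egfr* 3, with 177 and 97 reads, was of the size of the *Itgav* peak.

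**Figure D4:**
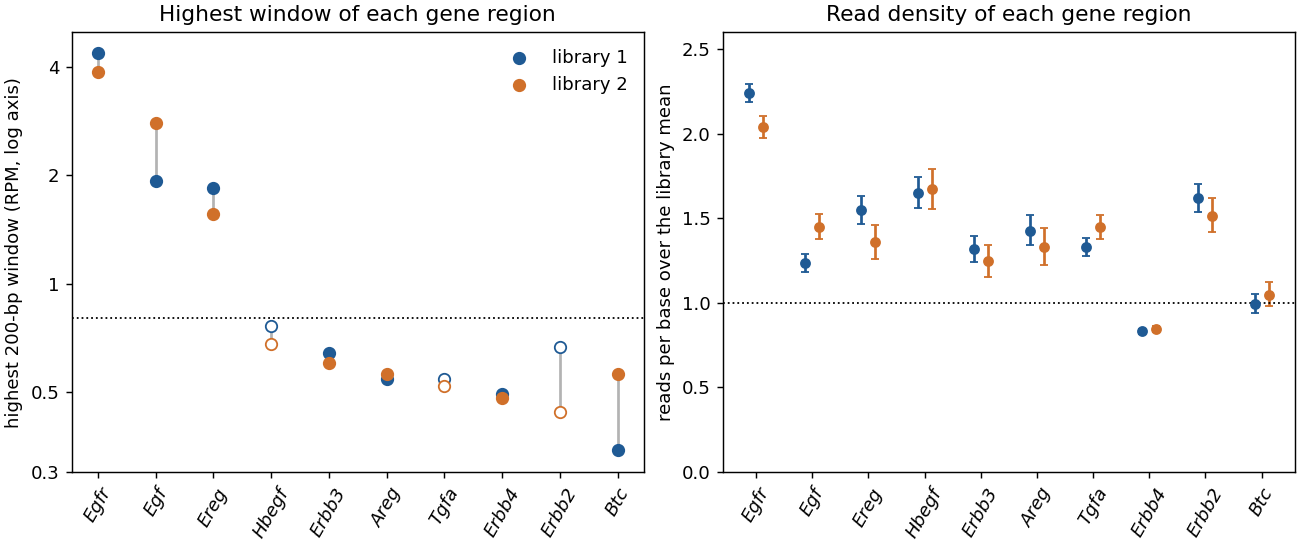
Left, reads in the highest 200-bp window of each region (RPM, log axis) in library 1 (blue) and library 2 (orange), joined by a grey line, with open points for genes without a shared peak and a dotted line at the median height of all shared peaks (0.801 RPM). Right, reads per base of each region over the mean of the library, with 95% counting intervals and a dotted line at 1. *Egfr* is the highest gene in both panels and in both libraries, and *Erbb4* lies below 1 on the right.

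Read density over the whole region gave a different order below *Egfr*. *Egfr* held 2.24 times the mean density of library 1 (6857 reads) and 2.04 times that of library 2 (3847 reads), at the 95.6 percentile of all protein-coding genes. *Hbegf*, with 0 shared peaks, came next at 1.65 and 1.67 times (80.3 percentile), followed by *Erbb2*, also with 0, at 1.62 and 1.52 times (72.9 percentile). *Btc* (0.994 and 1.05 times) and *Erbb4* (0.831 and 0.847 times) were lowest. The other 5 genes lay between 1.23 and 1.55 times, and among *Erbb2*, *Ereg*, *Tgfa*, *Areg*, *Egf* and *Erbb3* each neighbouring pair in the order overlapped between the libraries, as did 8 of all 45 pairs. The median of the 10 genes was 1.38 and 1.40 times, beside 1.36 and 1.33 times for all protein-coding genes. With the windows of shared peaks left out, *Egfr* still had 1.79 times the mean density, the highest of the family. Windows without a read in either library, as unmappable sequence gives, made up 23.4% of all chromosomes. They made up 13.8% of *Btc*, 12.9% of *Ereg*, 12.7% of *Erbb4*, 11.4% of *Egf*, 8.20% of *Areg* and 4.84% of *Erbb3*. At *Egfr* the share was 2.53%, at *Erbb2* 2.45%, at *Hbegf* 2.36% and at *Tgfa* 1.16%. The part of such windows in the densities was not tested.

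Of the 10 genes, 1 had a shared peak within 2 kb of its start, *Btc*, near the 11.7% of all protein-coding genes, and that peak was lost with 400-bp or 100-bp windows. Reads per kb within 2 kb of the start were above those of the whole region for 8 of the 10 genes in each library, beside 63.9% of all protein-coding genes in library 1 and 66.5% in library 2, the exceptions being *Egfr* and *Tgfa* in library 1 and *Areg* and *Tgfa* in library 2. Summed over the whole stretch from 2 kb before to 2 kb past the start, and so not on the scale of a 200-bp window, the reads were most numerous at *Erbb2* (175 reads or 4.32 RPM in library 1 and 91 reads or 3.65 RPM in library 2, the 88.5 and 84.9 percentiles of all genes), although it had no peak there. At *Egfr* these sums were 89 and 81 reads, or 2.20 and 3.25 RPM over the stretch (51.8 and 79.4 percentiles). At *Areg* they were 105 and 45 reads, or 2.59 and 1.80 RPM over the stretch (65.5 and 34.0 percentiles). RefSeq promoter sequences (GRCm38, 250 bases before to 50 after the start) matched 7 of the 10 genes with 8 promoters, of which 1, at *Egf*, held a GATA match (12.5%, beside 29.8% of all 32851 promoters in the table).

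Across the 12 shared peaks, 7 lay in introns, 1 in an exon, 3 downstream and 1 upstream of the gene. A GATA match lay within 100 bp of 9 of the 12 summits (75%, exact 95% interval 42.8 to 94.5%), beside 71.1% of all shared summits and 33.4% of windows 1 kb to either side of them. AGATAA alone lay at 7 of 12 (58.3%), beside 40.8% of all, AP-1 at 2 of 12 (16.7%), beside 12.4%, and TGTGGT, the core bound by Runx factors, at 3 of 12 (25%), beside 17.1%. GATA matches numbered 2 or more at 5 of the 12 summits, beside 25.9% of all. With 12 sites the intervals are wide (27.7 to 84.8% for AGATAA), so neither a likeness to other shared peaks nor a difference from them is shown. The 3 summits without a GATA match were *Egfr* 1, *Egfr* 5 and *Erbb4* 1. For each of the 12 peaks the 95% interval of the ratio of library 1 to library 2 included 1, with ratios from 0.616 (*Btc* 1) to 1.80 (*Areg* 1), and the median over all shared peaks was 1.06.

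A further 39 peaks in these regions were called in library 1 and not in library 2, with 12 to 49 reads in library 1 and 2 to 16 at the same window in library 2. Thus 12 of the 51 peaks of library 1 in these regions were shared, beside 33.2% of its peaks on all chromosomes. *Egfr* and *Erbb4* held 12 each, *Areg* 3, *Erbb3*, *Ereg*, *Hbegf*, *Egf* and *Tgfa* 2 each, and *Erbb2* and *Btc* 1 each. In library 2, 38 of the 39 windows were above the local background and 20 were above 2-fold, the exception being a window in intron 19 of *Erbb4* with 14 and 2 reads. The same shares were not counted over all chromosomes, so these counts are not a result about these regions. The highest of those at *Egfr*, in intron 1 at 31497 bp, held 49 reads in library 1 (1.21 RPM, 5.13-fold) and 9 reads in library 2 (0.361 RPM). Library 2 was the shallower library, and with library 1 thinned to its depth the shared peaks of the family were 10 in place of 12. Over all chromosomes, library 1 thinned to that depth still had 46975 peaks, beside 28204 in library 2. The cause of this difference was not tested. Library 2 had 3 peaks in these regions that overlapped none of library 1, upstream of *Egfr* (8 reads in library 1 and 15 in library 2), in intron 3 of *Erbb4* (6 and 10 reads) and downstream of *Erbb4* (5 and 10 reads).

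**Figure D5:**
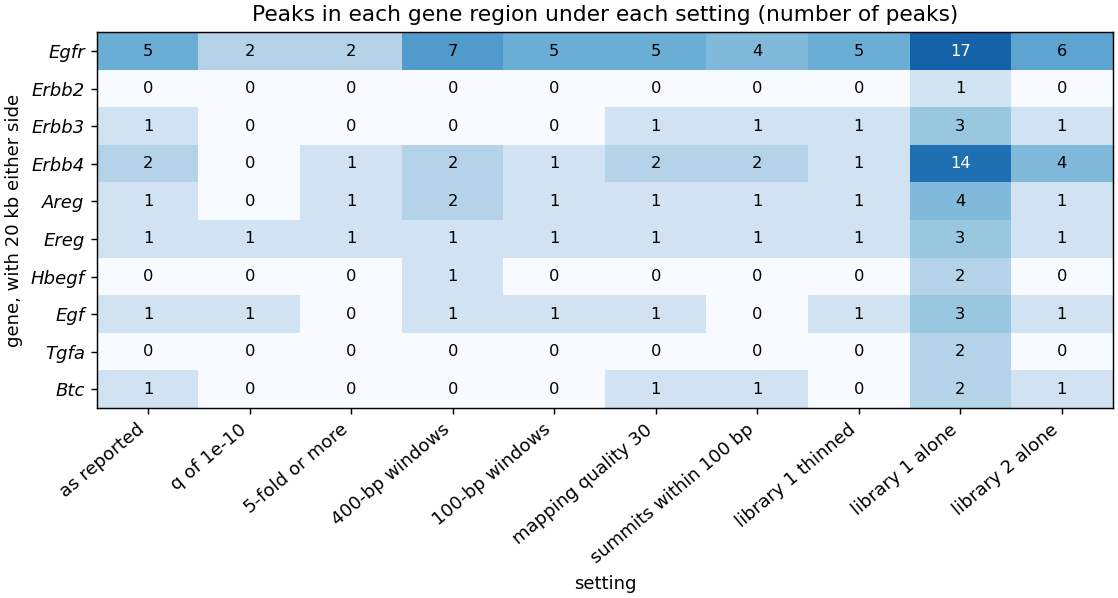
Number of peaks in each region (gene with 20 kb either side) under each setting, with shared peaks in all columns but the last pair, which count the peaks of each library alone; darker cells hold more peaks. *Egfr* has 2 or more peaks in every column, *Ereg* has 1 or more, and *Erbb2* and *Tgfa* have 0 except in library 1 alone.

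*Egfr* 3 and *Ereg* 1 were called in 7 of the 7 other ways of calling shared peaks, and *Egfr* 2, *Egfr* 4, *Erbb4* 2 and *Areg* 1 in 6. *Egfr* 1 and *Egf* 1 were called in 5, *Egfr* 5 in 4 and *Erbb3* 1 in 3. *Erbb4* 1 and *Btc* 1 were called in 2 and should be read as uncertain. *Egfr* stayed first in height and in density under each alternative tried for these measures.

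The other genes of the pathway were counted from a list of 26, of which 21 (80.8%) had a shared peak, beside 54.8% of all protein-coding genes, and 3 (11.5%) had one within 2 kb of the start, beside 11.7%. There were 66 shared peaks in all (1.40 per 100 kb, beside 1.36 over the regions of all protein-coding genes and 0.621 for the EGF family). The groups below are small and are given as counts, to be read beside the same 54.8%. Longer regions have more room for a peak, and these shares are not corrected for length. The 26 regions took 4715356 bp in all, and the median region of all genes has 57425 bp. Among other ligands 3 of 5 had a shared peak (*Nrg1*, *Nrg2* and *Nrg4*, but not *Epgn* and *Nrg3*), among genes of ligand release and processing 4 of 5 (not *Adam17*), among adaptors 4 of 4, among receptor partners and inhibitors 5 of 6 (not *Lrig3*), and among inhibitors of the pathway 5 of 6 (not *Spry2*). The most peaks were at *Cblb*, a ubiquitin ligase that restrains T cell activation and receptor signalling, with 11, the tallest holding 160 and 126 reads (99.1 percentile). *Spred2*, an inhibitor of Ras and ERK signalling, had 6, and *Furin*, a protease that processes precursors, had 5, of which 1 at its promoter. Of the peaks counted for *Furin*, 0 lay in the gene body, and the tallest was 29686 bp past the start. *Adam10*, a protease that sheds ligands, *Grb2*, the adaptor that links receptors to Sos proteins, and *Lrig1*, which lowers receptor levels, had 4 each and tied for the next place. Promoter peaks were also found at *Sos1*, which activates Ras, and *Dusp6*, a phosphatase of ERK, with 3 and 2 shared peaks in all. The tallest at *Lrig1* held 128 and 79 reads (97.2 percentile). The tallest near *Dusp6* held 104 and 62 reads (94.3 percentile) and lay at -18131 bp from the start, outside the promoter. The tallest at *Sos1*, at -4797 bp, was also outside the promoter and stood at the 88.9 percentile, as did that at *Grb2*. The tallest at *Furin* stood at the 82.4, at *Spred2* at the 80.7 and at *Adam10* at the 39.1 percentile. *Adam17*, the main sheddase of amphiregulin, had 2 peaks in library 1 and 0 shared.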

How the data were processed

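Gata3 ChIP-seq by ChIPmentation was analysed in 2 libraries of 1 condition, as the labels number them. According to the methods and the labels' processing notes, single reads were aligned to GRCm38 with Bowtie2 (2.3.5.1) and reads without a unique position were removed. The notes also name MACS2 (2.1.2), without parameters, but peak lists were not used here. The authors deposited each aligned read as a position, a strand and a mapping quality score from 22 to 44, which is no measure of binding. In the deposited lines 0 reads shared a 5′ end and strand, so duplicates had been removed, which limits how high a peak can rise.

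Each read was moved 100 bp along its strand, and reads were summed over 200-bp windows at 50-bp steps. Each window with a read was tested (one-sided exact Poisson) against the highest of the library, 5-kb and 10-kb means, which include the window's own reads and so lower the fold, with Benjamini-Hochberg adjustment to a q of 0.01. Overlapping windows are not independent. Passing windows within 100 bp were joined, the summit being the centre of the highest window, and peaks overlapping by at least 1 bp were shared. Library 1 summits assigned peaks to genes, and promoters reached 2 kb to each side of the gene start. Exons and introns were counted in the transcript with the most exons. Percentiles of peaks and of highest windows rank the lower RPM of the libraries. Those of density rank the mean of the libraries, and those of reads around the start rank each library on its own. The percentile of shared peaks per 100 kb ranks that rate. Letters were read from the GRCm38 genome. Intervals are 95% exact.

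The text names the 10 genes, *Epgn*, the genes whose start is nearest to their shared peaks and, of the pathway list, those with a promoter peak and the 5 with the most shared peaks, ties included; *Il13*, *Gata3* and *Itgav* give scale. Genes of the list without a shared peak and genes beyond 20 kb were named after their values were seen. The genes and lists were chosen with earlier results of these data known. On simulated reads with planted peaks the caller found nearly all of the tallest and missed those of low height. The planted heights are not given here, so the simulation does not show how many peaks of the reported heights are found or missed. Python 3.11.15, NumPy 2.4.6, SciPy 1.17.1 and Matplotlib 3.10.9 were used, with samtools 1.23.1. The alternatives were stricter thresholds, other windows, shifts and flanks, a mapping quality of at least 30, nearer summits, thinning of library 1, each library alone, other promoters and another motif window.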

Additional observations from a re-analysis of the deposited data

How the results depend on the processing

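No paired analysis was possible because no groups were compared. With a q of 1e-10, 5-fold over the local background or the gene body alone, the genes with a shared peak fell from 7 to 3, 4 and 4. Of all protein-coding genes, 19.6% had one at a q of 1e-10. Their share was not counted at 5-fold or for the gene body alone. The 12 shared peaks became 4 at a q of 1e-10, 5 at 5-fold and 21 with 50 kb either side, and 15 to 51 with either library alone. The 1 promoter gene became 0 at a q of 1e-10, at 5-fold, with 400-bp windows, with 100-bp windows, with library 1 thinned and with 1 kb either side, and 1 to 3 with either library alone. The 4 shared peaks from *Epgn* to *Btc* became 1 at a q of 1e-10, 2 at 5-fold, and 4 to 18 with either library alone, and the 21 pathway genes became 9 at a q of 1e-10 and 10 at 5-fold. The median density over the family, 1.38 times the mean, was 1.27 outside shared peaks and 1.38 to 1.40 with either library alone. The median highest window, 0.572 RPM, was 0.961 with 400-bp windows and 0.353 with 100-bp windows, which follows from their width, and 0.581 to 0.802 with either library alone. The limit for a change was 1.5 times for counts and the gap between the libraries for densities and heights, and the exact 95% interval for the GATA share. The other 41 values of this kind stayed within it, as did 111 values for single genes, while 69 for single genes did not. The larger count of peaks, 51, was that of library 1 alone, at its full depth.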

Other observations

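Beyond 20 kb, shared peaks near the family lay mostly beside other genes. Between 20 and 50 kb from the 10 genes there were 9, so that with 50 kb either side all 10 had a shared peak, *Erbb2*, *Hbegf* and *Tgfa* included. The share of all protein-coding genes was counted with 20 kb either side only (54.8%). Wider regions take in more peaks, so the count of 10 has no background to be read against. The genes named here were chosen after their values were seen. The tallest was 32584 bp past the end of *Erbb2*, within *Ikzf3*, which encodes the lymphoid transcription factor Aiolos, with 199 reads in library 1 (4.91 RPM, 5.28-fold, exact p = 6.0e-76) and 163 reads in library 2 (6.53 RPM, 6.46-fold, exact p = 2.2e-74, both from the one-sided Poisson test), which placed it at the 99.9 percentile among the shared peaks. It was taller than *Egfr* 3 in both libraries by RPM. A second peak within *Ikzf3*, 39934 bp past the end of *Erbb2*, held 95 and 43 reads (86.6 percentile), and both carried a GATA and an AP-1 match within 100 bp of the summit. Near *Erbb3*, 40973 bp past its end, a peak with 118 and 50 reads (90.5 percentile) lay 679 bp from the start of *Esyt1*, and carried 3 GATA matches.

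The peak 46577 bp past the end of *Hbegf* held 42 and 19 reads (46.9 percentile) and lay 3826 bp from the start of *Pfdn1*. The peak 46523 bp before the start of *Tgfa* held 31 and 29 reads (47.7 percentile), and *Tgfa* was the nearest coding gene. The peak 20591 bp before the start of *Erbb4* held 20 and 12 reads (11.5 percentile). Which of these genes, if any, a peak acts on was not tested.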
